A study of Mus musculus with 9 samples.

Results

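Type IV collagen forms the sheet-like network of basement membranes, and its chains Col4a1 and Col4a2 were followed here together with 8 genes of the same pathway across mouse stem cells of the embryonic and the extraembryonic endoderm lineages. The genes were taken by symbol. They are the collagen chains Col4a1, Col4a2 and Col18a1, the collagen chaperone Serpinh1, the prolyl 4-hydroxylase subunits P4ha1 and P4ha2, the lysyl hydroxylases Plod1, Plod2 and Plod3, and the collagen-binding matrix protein Sparc. All 10 were found among the 37975 rows of the deposited expression table.

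Collagen chains are modified while they enter the endoplasmic reticulum. Prolyl hydroxylases make the hydroxyproline that stabilises the triple helix, lysyl hydroxylases make the hydroxylysine used for sugar attachment and cross-links, and the chaperone HSP47, the product of Serpinh1, binds the folded helix until it is exported. Primitive endoderm and its parietal derivatives are known as heavy producers of basement membrane, the thick Reichert's membrane of the rodent yolk sac among them.

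RNA sequencing gave 1 library for each of 9 cultures. XEN cells of the wild-type line IM8AR, stem cells of the extraembryonic endoderm, are a culture model of the primitive endoderm lineage, and wild-type embryonic stem cells (R1 ESC) are their counterpart of the embryo proper. The 7 remaining libraries come from an ESC line with the genotype Sox17 overexpression, with and without doxycycline (dox). The line was sampled before dox, after 7, 21, 35 and 49 h and after 6 days in 100 ng/ml of it, and once more as Sox17-XEN. For Sox17-XEN the treatment label combines 30 days of dox and 30 dox-free days in an order that is not clear, and its description reads dox-indep. The day 6 description carries the word SORT without detail, and those of the earlier times do not. In any step to day 6, time and sorting thus cannot be told apart. ESC grew on fibroblast feeder cells with LIF, and XEN cells grew in medium conditioned by fibroblasts, so cell type and culture medium cannot be told apart. There is 1 library per culture, hence no replicate error for any value. Cells given dox without the transgene were not analysed here.

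Levels are the authors' FPKM (fragment numbers scaled by the length of the transcript and by library size). Differences are on the log2(FPKM + 1) scale, which understates changes of low genes, and "higher" or "lower" between single libraries means a difference of at least 2 log2 units, or 4-fold in FPKM + 1. As a scale for such differences, the central 95% of 8031 genes at 5 FPKM or more ran from -0.90 to 1.01 between the Sox17 line without dox and R1 ESC. This is a spread over genes and not the error of 1 gene. The libraries carried the lineage markers of their labels. All 6 endoderm markers measured (Gata4, Gata6, Sox17, Sox7, Foxa2 and Pdgfra) were higher in wild-type XEN than in R1 ESC, and higher in Sox17-XEN and at day 6 than without dox. The ESC markers Pou5f1, Nanog and Sox2 were all lower in both XEN lines, whereas at day 6 Pou5f1 was still at 325 FPKM, against 723 FPKM without dox. Absolute depth is unknown. The commonest ratio between low values put the relative depth between 62.0% (day 6) and 127% (7 h) of R1 ESC, but at most 12.1% of the low values of a library shared that ratio.

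Of the 90 member values, 85 were usable. The remaining 5 carried the authors' status for too many fragments and a listed value of 0, which is a failed estimate and not an absent transcript. They are Col4a1 and Col4a2 at day 6 and in wild-type XEN, and Sparc in Sox17-XEN. The authors' lower confidence bound was 0 for 82 of the 85 usable values and for 98.7% of all values at 1 FPKM or more. Most intervals of the authors therefore overlap. The exceptions among the members are Sparc at day 6 and in wild-type XEN and Serpinh1 in Sox17-XEN.

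Promoter windows from RefSeq (GRCm38.p6, 250 bases before and 50 after a gene's start) were found for 9 of the 10 genes. The expression table uses the build mm9, and its coordinates were not mixed with these. Col4a1 and Col4a2 lie head to head on chromosome 8, with Col4a1 on the minus and Col4a2 on the plus strand, and their annotated starts are 21 bases apart. Their windows share 78 bases, shown because they span both starts of the chains whose levels are described first. The stretch is given on the plus strand in lower case, chr8:11312777-11312854.

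Col4a1 and Col4a2 shared start region: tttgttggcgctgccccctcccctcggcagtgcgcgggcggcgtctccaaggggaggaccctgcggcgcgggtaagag

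The windows of Col4a1 and Col4a2 had a GC content of 74.0% and 73.7%, against a median of 52.7% over all 32851 windows. Hypoxia-inducible factors bind the core letters ACGTG or GCGTG, and only ACGTG was searched. Of the motifs searched on both strands, the letters ACGTG were present in 4 of the 9 genes, Serpinh1, P4ha1, P4ha2 and Plod3, against 19.6% of all windows. P4ha1, P4ha2 and Serpinh1 are shown because they are among the largest differences below. Plod3 is shown as the fourth gene with the letters. Each is written 5′ to 3′ on the gene's strand, with ACGTG or its reverse complement CACGT in capitals.

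Serpinh1, chr7:99353190-99353489, minus strand: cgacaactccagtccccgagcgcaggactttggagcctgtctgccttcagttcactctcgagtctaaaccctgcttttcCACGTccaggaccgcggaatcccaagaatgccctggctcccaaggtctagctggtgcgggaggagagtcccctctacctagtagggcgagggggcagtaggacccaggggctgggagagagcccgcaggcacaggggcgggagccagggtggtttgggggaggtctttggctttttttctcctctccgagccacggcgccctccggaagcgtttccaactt

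P4ha1, chr10:59323046-59323345, plus strand: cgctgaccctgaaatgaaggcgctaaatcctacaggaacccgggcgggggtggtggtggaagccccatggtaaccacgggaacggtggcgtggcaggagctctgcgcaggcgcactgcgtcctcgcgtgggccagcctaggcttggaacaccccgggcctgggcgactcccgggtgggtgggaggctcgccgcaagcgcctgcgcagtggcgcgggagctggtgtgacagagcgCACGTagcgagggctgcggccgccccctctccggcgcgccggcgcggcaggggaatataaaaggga

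P4ha2, chr11:54100674-54100973, plus strand: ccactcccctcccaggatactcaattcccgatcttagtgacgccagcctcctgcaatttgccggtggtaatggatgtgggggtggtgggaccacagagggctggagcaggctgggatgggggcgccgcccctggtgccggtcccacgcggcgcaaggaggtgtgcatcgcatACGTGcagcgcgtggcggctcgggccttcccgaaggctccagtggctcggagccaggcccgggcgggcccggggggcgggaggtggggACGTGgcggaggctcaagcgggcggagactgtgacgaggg

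Plod3, chr5:136986769-136987068, plus strand: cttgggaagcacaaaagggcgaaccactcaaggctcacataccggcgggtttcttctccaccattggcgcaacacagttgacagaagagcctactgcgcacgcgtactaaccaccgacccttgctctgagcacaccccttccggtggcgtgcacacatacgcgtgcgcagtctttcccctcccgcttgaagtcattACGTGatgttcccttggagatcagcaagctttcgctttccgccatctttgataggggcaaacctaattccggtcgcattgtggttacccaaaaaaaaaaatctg

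P4ha2 held the letters 2 times, at bases -78 to -74 and 11 to 15 counted from its start, and the other genes 1 time each. In Serpinh1 they lie at -171 to -167, in Plod3 at -54 to -50 and in P4ha1 at -16 to -12. The core letters of SOX factors, ATTGT, were present in the window of Plod3 alone among the 9 genes, against 31.0% of all windows. The GATA core AGATAA was in none of the 9, against 11.2% of all windows. The heat shock element core GAANNTTC was present in Plod1 alone, against 7.86% of all windows, and the endoplasmic reticulum stress element in none, against 0.119%. The CCAAT letters were present in Col4a1, Col4a2, Col18a1 and Plod3, against 37.4% of all windows, and TATAAA in Plod1 and P4ha1, against 13.6%. The GC box GGGCGG was present in 7 of the 9, all but Sparc and Plod3, against 35.7% of all windows. A match describes letters in this window and does not show binding.

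The chains of type IV collagen had the largest differences from no dox of the 10 genes at 21 to 49 h. Col4a1 had 51.7 FPKM without dox, then 62.3, 220, 278 and 308 FPKM at 7, 21, 35 and 49 h. It had 611 FPKM in Sox17-XEN and 23.8 in R1 ESC. Its lowest values are thus those of the ESC cultures and of 7 h, and every measured value from 21 h on lies above them. Col4a2 (44.0 FPKM without dox) had 37.4, 112, 127 and 158 FPKM at 7, 21, 35 and 49 h. It had 225 FPKM in Sox17-XEN and 18.9 in R1 ESC. Among the steps up to 49 h, the widest of both chains lay between 7 h and 21 h, 3.53-fold for Col4a1 and 2.99-fold for Col4a2. The steps to and from day 6 have no value for either chain. In bulk libraries more producing cells and more RNA per cell cannot be told apart.

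Relative to no dox, Col4a1 was 2.07 log2 units higher at 21 h, 2.40 at 35 h, 2.55 at 49 h and 3.54 in Sox17-XEN. Col4a2 reached 1.82 at 49 h, under the threshold, and 2.33 in Sox17-XEN. The call of Col4a2 in Sox17-XEN ended at 1.99 once libraries were rescaled to the median gene. Col4a1 (ENSMUSG00000031502) and Col4a2 (ENSMUSG00000031503) share 1 listed locus with each other and with Gm15418 and Gm15419 (mm9, chromosome 8, 11187754 to 11449287). Whether counting used strand is not stated, so reads near their common start are less certain. The ratio of Col4a1 to Col4a2 was 1.17 without dox, then 1.67, 1.97, 2.18 and 1.94 at 7, 21, 35 and 49 h, and 2.72 in Sox17-XEN. In R1 ESC it was 1.26. The ratio was thus lowest in the untreated ESC cultures.

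**Figure D1:**
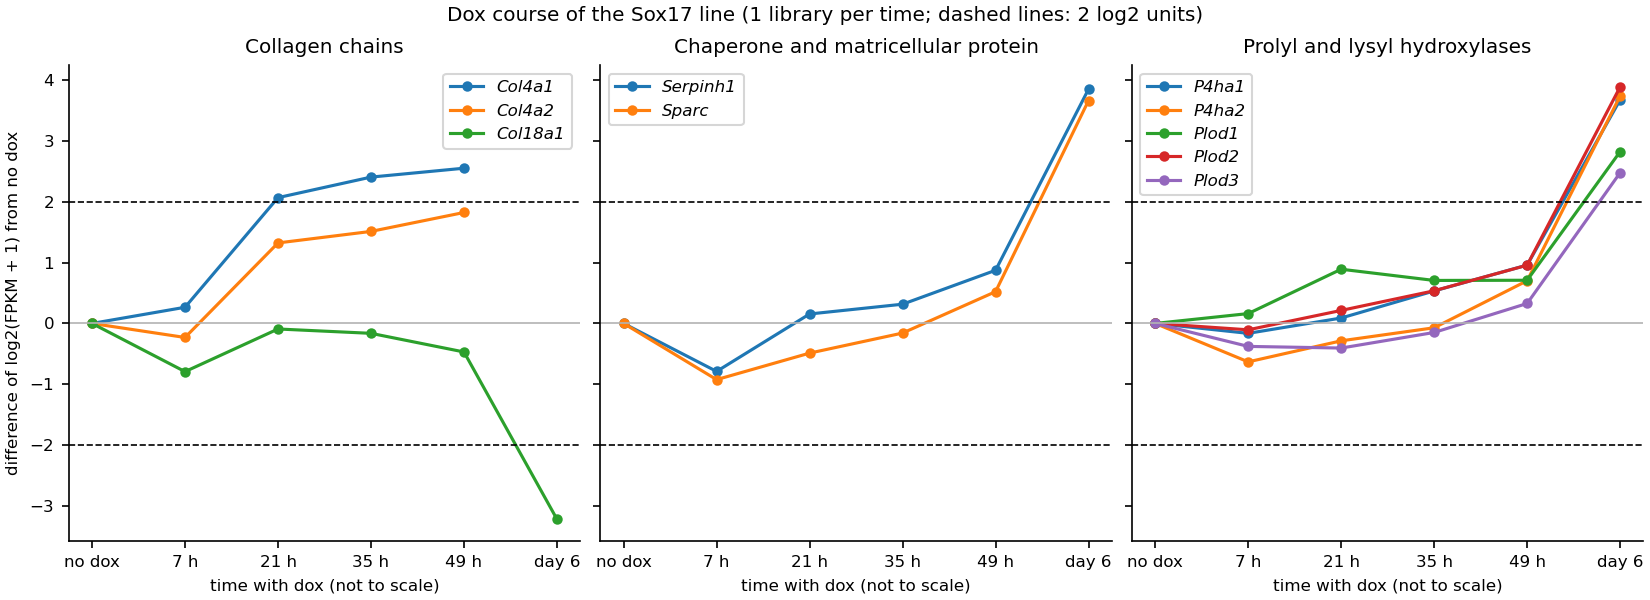
Difference of log2(FPKM + 1) from no dox (vertical axis) along the dox course of the Sox17 line (horizontal axis, not to scale), 1 point per library, in panels for collagen chains, for Serpinh1 and Sparc, and for the hydroxylases. Col4a1 crosses the dashed line at 2 log2 units by 21 h, whereas Serpinh1, Sparc and the hydroxylases cross it at day 6, and Col4a1 and Col4a2 have no estimate at day 6.

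Up to 49 h few members were past the threshold. None of the 10 genes was past the threshold at 7 h, where 0.446% of all genes were higher and 0.34% lower, and their median difference was -0.30. At 21 h, Col4a1 was the 1 gene of the 10 past the threshold, with 0.746% of all genes higher and 0.446% lower. The same held at 35 h (0.614% higher, 0.46% lower) and at 49 h (0.706% higher, 0.466% lower).

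Serpinh1 (ENSMUSG00000070436, mm9, chromosome 7, 106493884 to 106501740) encodes HSP47, a chaperone for collagens. It had 125 FPKM without dox, then 71.7, 139, 155 and 229 FPKM at 7, 21, 35 and 49 h, and 1809 FPKM at day 6. It had 4326 FPKM in Sox17-XEN, 2311 in wild-type XEN and 86.0 in R1 ESC. Day 6 and the XEN lines are all above the other 6 libraries, and the step from 49 h to day 6 was 7.90-fold. How many of all genes separate the libraries this way was not counted, here or for the members below. Serpinh1 was 4.73 log2 units higher in wild-type XEN than in R1 ESC, and 5.11 higher in Sox17-XEN than without dox. In Sox17-XEN it ranked 5 of 15017 genes with a value, and 6 rows with too many fragments for an estimate there have no rank. Relative to the summed FPKM of Col4a1 and Col4a2, Serpinh1 was at 1.30 without dox, then at 0.719, 0.419, 0.383 and 0.492 at 7, 21, 35 and 49 h. This ratio was 5.17 in Sox17-XEN and 2.01 in R1 ESC. The chaperone was thus lowest relative to the chains at 21 to 49 h, when the chains were already several times above their level without dox. This was not particular to the chaperone. For P4ha1 and P4ha2 together the ratio was 0.621 without dox and 0.172, 0.183 and 0.234 at 21, 35 and 49 h. For Plod1, Plod2 and Plod3 together it was 1.09 without dox and 0.330, 0.298 and 0.332 at these times. At day 6 and in wild-type XEN the chains have no value and these ratios cannot be given.

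P4ha1 and P4ha2 are catalytic subunits of prolyl 4-hydroxylase and hydroxylate collagen prolines in a tetramer with P4hb. P4ha3, a further catalytic subunit that is not a member, had 14.2 FPKM without dox and 1.32 at day 6, lower by 2.71 log2 units. P4ha3 had 17.1 FPKM in Sox17-XEN and 6.71 in R1 ESC. In the limma comparison of the lines given below it was not called (-0.097 ± 0.73 log2 units, SE, limma adjusted p = 0.937). P4ha1 (ENSMUSG00000019916, mm9, chromosome 10, 58786043 to 58836052) had 34.3 FPKM without dox, then 30.5, 36.5, 50.1 and 67.6 FPKM at 7, 21, 35 and 49 h, and 449 FPKM at day 6. It had 545 FPKM in Sox17-XEN, 799 in wild-type XEN and 25.3 in R1 ESC. P4ha1 was lowest in R1 ESC and at the early times, with a step of 6.65-fold between 49 h and day 6. P4ha2 (ENSMUSG00000018906, mm9, chromosome 11, 53913596 to 53945167) had 25.2 FPKM without dox, then 15.9, 20.5, 23.9 and 41.6 FPKM at 7, 21, 35 and 49 h, and 348 FPKM at day 6. It had 763 FPKM in Sox17-XEN, 1143 in wild-type XEN and 18.8 in R1 ESC. Its 61.0-fold difference between wild-type XEN and R1 ESC (5.86 log2 units) was the largest among the 7 members called higher there.

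The balance of P4ha1 and P4ha2 differed between the lines. P4ha2 made up 58.9% of their summed FPKM in wild-type XEN, against 42.6% in R1 ESC. In the Sox17 line it made up 42.3% without dox, between 32.3% and 38.1% at 7 to 49 h, 43.6% at day 6 and 58.3% in Sox17-XEN. P4ha2 was therefore more abundant than P4ha1 in both XEN lines and less abundant than P4ha1 in the other 7 libraries.

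The lysyl hydroxylases differed between the libraries in amount and in proportion. Plod2 (ENSMUSG00000032374, mm9, chromosome 9, 92437060 to 92503266) hydroxylates the telopeptides of fibrillar collagens and had 21.2 FPKM without dox, then 19.6, 24.7, 31.1 and 42.0 FPKM at 7, 21, 35 and 49 h, and 327 FPKM at day 6. It had 796 FPKM in Sox17-XEN, 685 in wild-type XEN and 17.6 in R1 ESC. Each time from 21 h on lay above the one before it, and the day 6 and XEN values do not overlap the rest. Plod1 (ENSMUSG00000019055, mm9, chromosome 4, 147283861 to 147310876) acts on helical lysines and had 19.1 FPKM without dox, then 21.5, 36.3, 31.9 and 31.9 FPKM at 7, 21, 35 and 49 h, and 141 FPKM at day 6. It had 368 FPKM in Sox17-XEN, 153 in wild-type XEN and 11.3 in R1 ESC. Plod1 stood out as the lysyl hydroxylase with the largest excess in Sox17-XEN over wild-type XEN, 1.26 log2 units. Plod3 (ENSMUSG00000004846) also transfers glucose onto collagen hydroxylysine and had 64.2 FPKM without dox, then 49.2, 48.3, 57.9 and 80.9 FPKM at 7, 21, 35 and 49 h, and 362 FPKM at day 6. It had 516 FPKM in Sox17-XEN, 375 in wild-type XEN and 43.1 in R1 ESC. Plod3 was the most abundant of the family in R1 ESC and in every library of the Sox17 line up to day 6. Plod3 shares its listed locus with Znhit1 and Mir702 (mm9, chromosome 5, 137458033 to 137472518), and Znhit1 was at 27.9 FPKM in wild-type XEN and 45.6 in R1 ESC.

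Within the summed FPKM of the 3 lysyl hydroxylases, Plod2 made up 56.5% in wild-type XEN and 24.4% in R1 ESC. It made up 20.2% without dox, 27.1% at 49 h, 39.4% at day 6 and 47.4% in Sox17-XEN. Plod3 made up 30.9% in wild-type XEN and 59.9% in R1 ESC, and 30.7% in Sox17-XEN against 61.5% without dox. Plod1 had its largest share at 21 h, 33.2%. The leading lysyl hydroxylase thus differed, Plod2 in both XEN lines and Plod3 in the others.

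**Figure D2:**
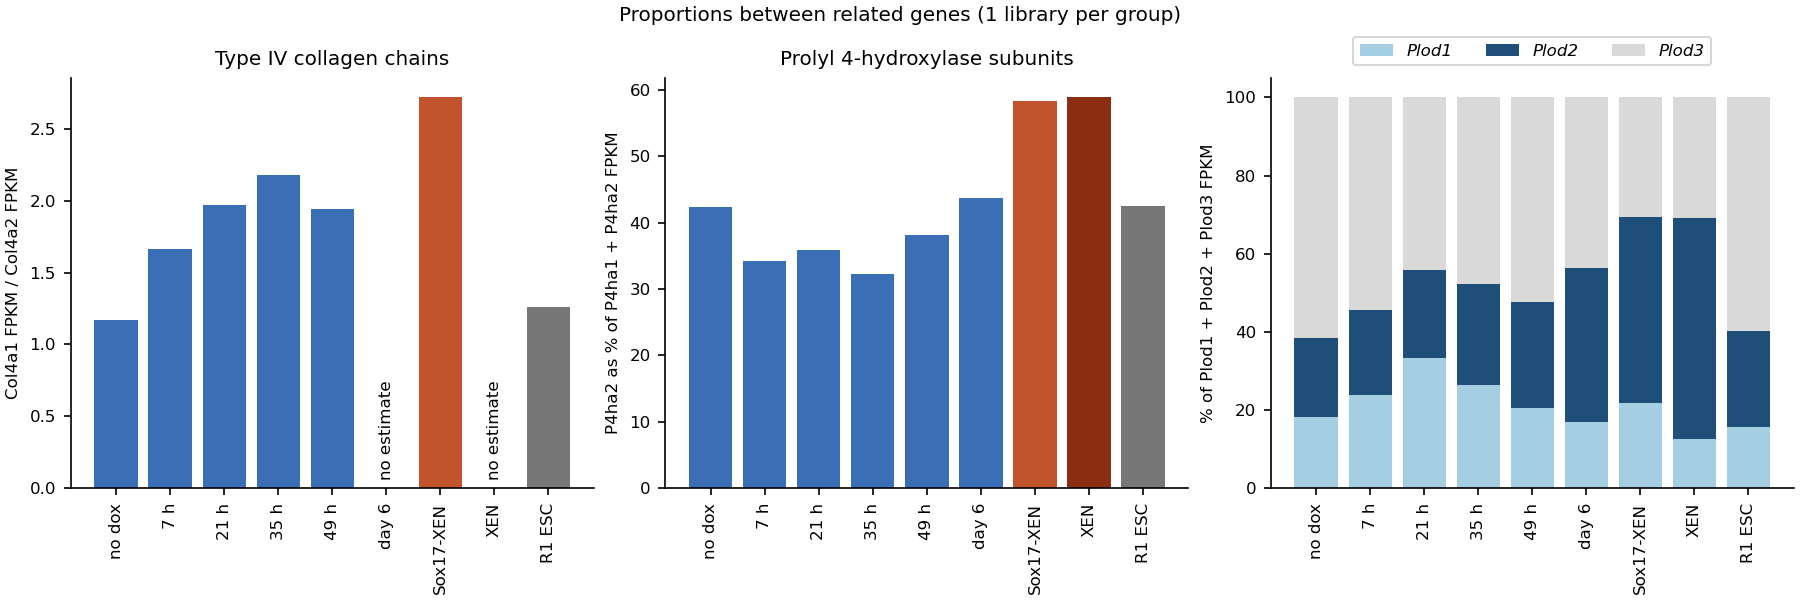
Bars give the ratio of Col4a1 to Col4a2 FPKM (left), P4ha2 as a percent of the P4ha1 and P4ha2 sum (middle) and the percent of the 3 lysyl hydroxylases (right, stacked) in each of the 9 libraries. P4ha2 is at 58.3% in Sox17-XEN and 58.9% in wild-type XEN, against at most 43.6% elsewhere.

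Sparc (ENSMUSG00000018593, mm9, chromosome 11, 55208001 to 55233582) is a calcium-binding glycoprotein that binds collagens including type IV. In every library in which it had a value, it was the most abundant of the members with a value. It had 478 FPKM without dox, then 251, 340.4, 428 and 686 FPKM at 7, 21, 35 and 49 h, and 6058 FPKM at day 6. It had 8107 FPKM in wild-type XEN and 273 in R1 ESC. The day 6 and wild-type XEN levels exceed all others, and the step from 49 h to day 6 was 8.83-fold, the widest of the 8 members with values at both times. In wild-type XEN it ranked 1 among the 15016 genes with a value, and at day 6 it ranked 6. Rows with too many fragments for an estimate, 9 in wild-type XEN and 4 at day 6, have no rank.

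Col18a1 (ENSMUSG00000001435) encodes another basement membrane collagen, whose end fragment is endostatin, and it went the opposite way. It had 113 FPKM without dox, then 64.7, 106, 101 and 81.2 FPKM at 7, 21, 35 and 49 h, and 11.2 FPKM at day 6. It had 4.87 FPKM in Sox17-XEN, 0.136 in wild-type XEN and 73.4 in R1 ESC. The XEN lines and day 6 lie below every other library. Its difference was -6.03 log2 units in wild-type XEN against R1 ESC, -4.28 in Sox17-XEN against no dox and -3.22 at day 6. Col18a1 shares its listed locus with Slc19a1 (mm9, chromosome 10, 76494985 to 76629293), which lay between 9.69 and 15.0 FPKM in all libraries.

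Across the genes, wild-type XEN against R1 ESC had 7 members higher and 1 lower of the 8 with a value. The background was 8.24% of all genes higher and 6.54% lower. The median difference of the members was 4.81, against 0.21 over all genes. Sox17-XEN against no dox had 8 higher and 1 lower of 9, with a background of 5.75% higher and 5% lower, and a median of 3.95. Day 6 against no dox had 7 higher and 1 lower of 8, with a background of 5.14% higher and 3.86% lower, and a median of 3.67. The last 2 comparisons share the library without dox. Col18a1 was the lower gene each time. Rescaling to the median gene, which moved wild-type XEN by 0.44, Sox17-XEN by 0.38 and day 6 by 0.27 log2 units relative to R1 ESC, changed the background to 5.20% higher and 7.37% lower in wild-type XEN against R1 ESC and to 3.88% higher and 5.79% lower in Sox17-XEN against no dox. Among the members it ended the call of Col4a2 in Sox17-XEN and no other.

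Few members differed by the threshold between the XEN lines. Sox17-XEN against wild-type XEN had 1 of 7 members past the threshold, Col18a1 at 2.37 log2 units higher, with 2.73% of all genes higher and 1.59% lower. Sox17-XEN against day 6 had none of 7 past it, with 2.96% higher and 3.62% lower. The Sox17 line without dox against R1 ESC also had none of 10, with 0.367% higher and 0.227% lower. All 10 members lay above R1 ESC there, by 0.25 to 1.17 log2 units with a median of 0.59, against 0.07 over all genes. All but Col4a1 (1.09) and Col4a2 (1.17) lay within the central 95% of genes given above.

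**Figure D3:**
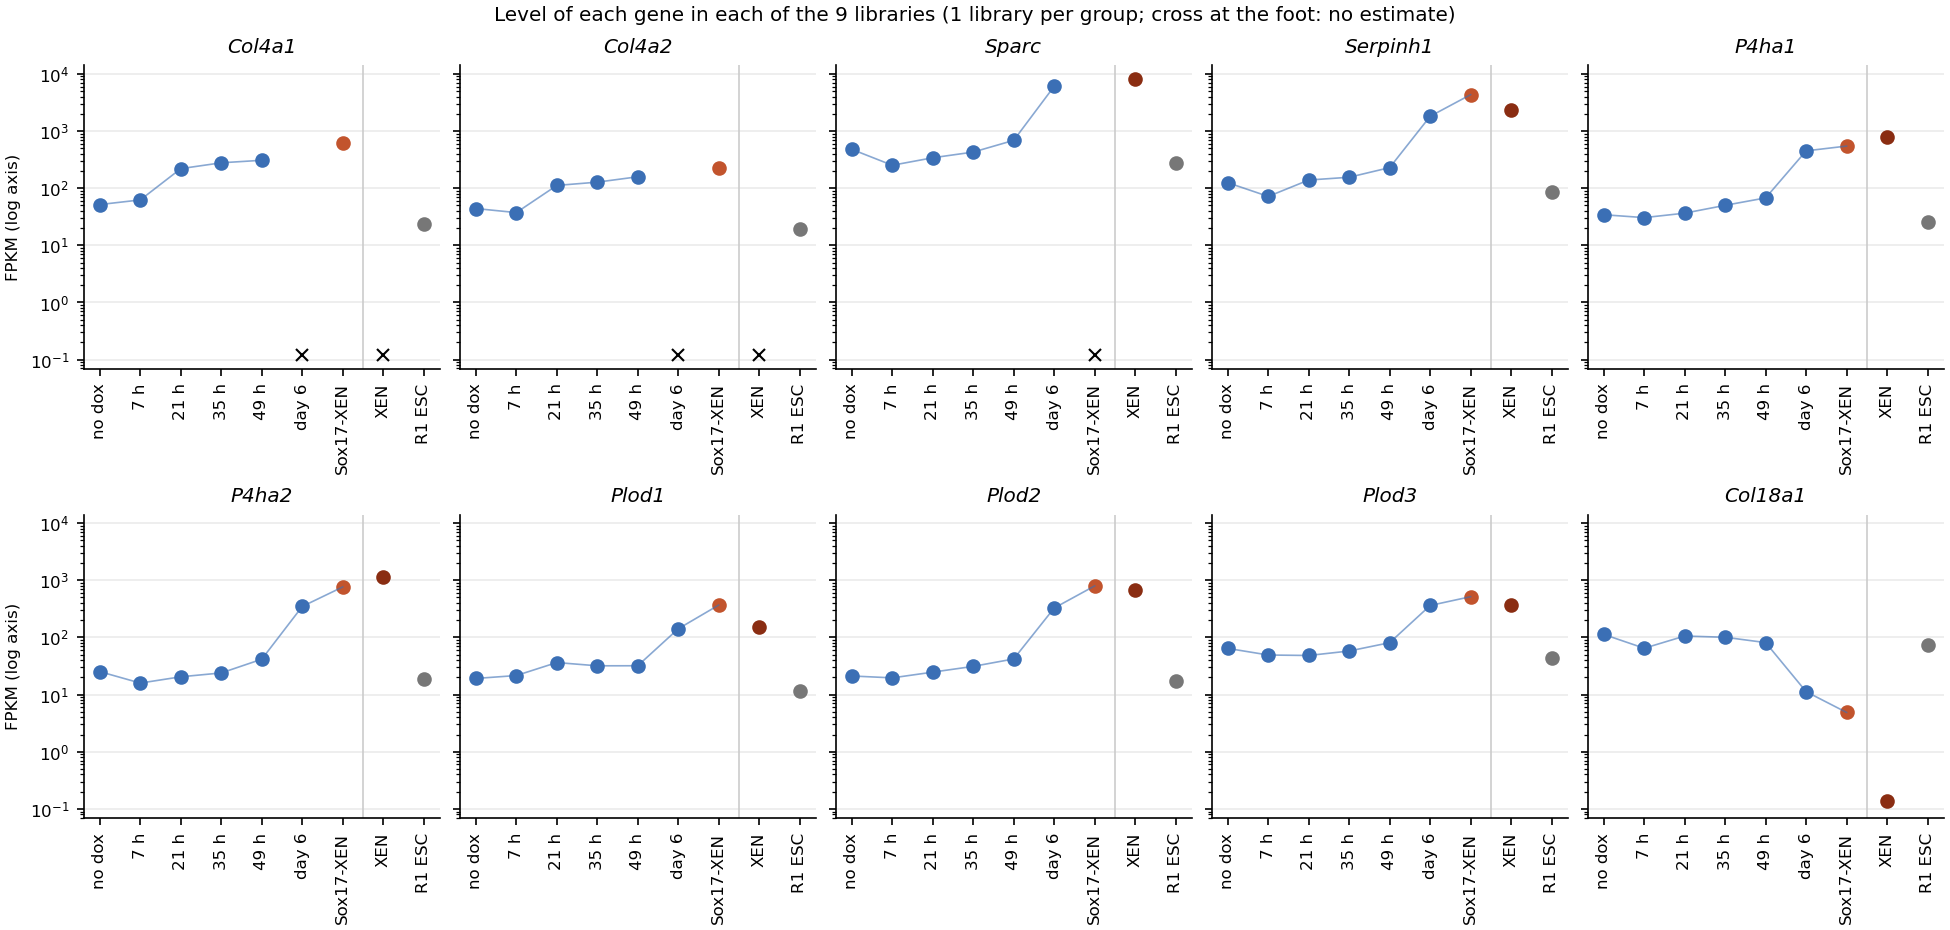
Level in FPKM (log axis) of each of the 10 genes in the 9 libraries, 1 point per library, with a cross at the foot for a failed estimate and a line joining the libraries of the Sox17 line. Day 6 and the XEN lines stand above the other libraries for Serpinh1, P4ha1, P4ha2, Plod1, Plod2 and Plod3, and below them for Col18a1. How many of all genes separate these libraries in the same way was not counted.

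**Figure D4:**
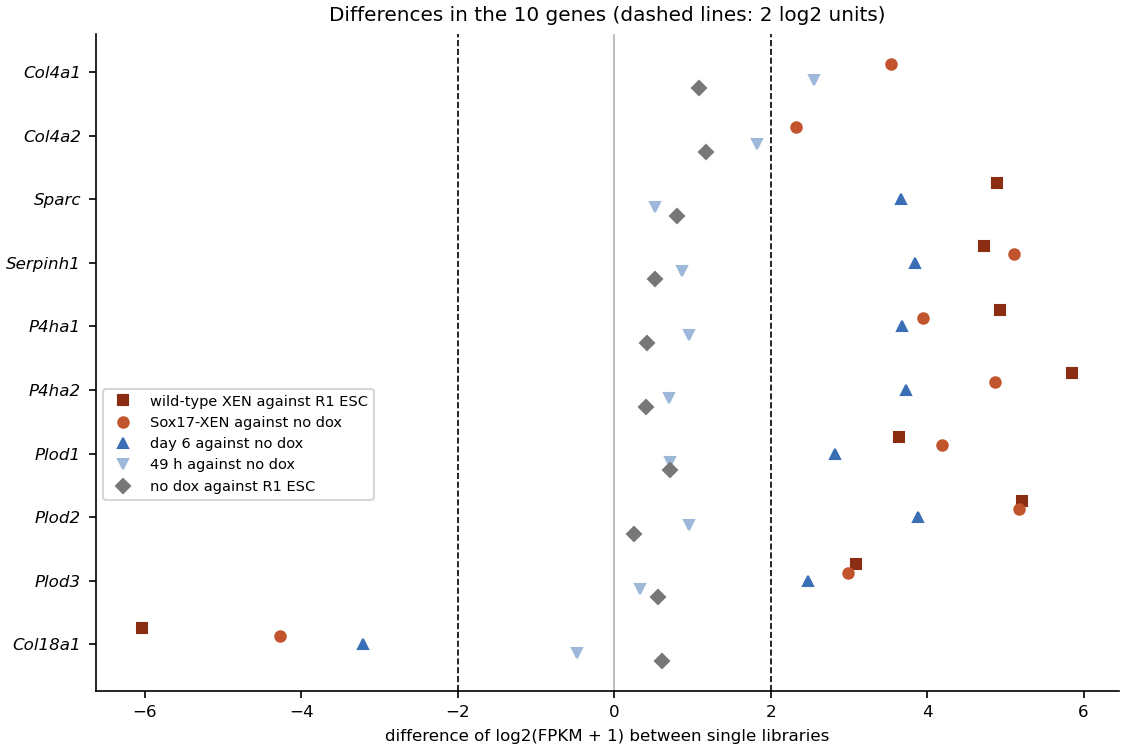
Difference of log2(FPKM + 1) between single libraries (horizontal axis) for each of the 10 genes (rows), with a symbol for each of 5 comparisons and dashed lines at 2 log2 units. In wild-type XEN against R1 ESC values run from -6.03 for Col18a1 to 5.86 for P4ha2, whereas no dox against R1 ESC stays between 0.25 and 1.17.

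Lines rather than replicates were tested by setting wild-type XEN and Sox17-XEN against R1 ESC and the Sox17 line without dox. A call required an adjusted p under 0.05 and a difference of 2 log2 units in limma, adjusted by Benjamini-Hochberg over 15017 genes. It called 732 genes higher (4.87%) and 581 lower (3.87%), and rescaling to the median gene changed that split to 459 higher and 690 lower. Of the 10 members 8 were higher and 1 lower, and 6 of the higher calls and the lower one rest on both lines of each type. P4ha2 had the largest estimate, 5.36 ± 0.31 log2 units (SE; limma adjusted p = 0.0171). Plod2 followed with 5.19 ± 0.21, Serpinh1 with 4.92 ± 0.47 and P4ha1 with 4.44 ± 0.31 (limma adjusted p = 0.0171 each). Plod1 was at 3.92 ± 0.54 (limma adjusted p = 0.0227) and Plod3 at 3.04 ± 0.32 (0.0174). Col18a1 fell by 5.15 ± 0.89 (limma adjusted p = 0.0325).

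Col4a1, Col4a2 and Sparc have a failed value in 1 XEN line and entered with 3 libraries. Their XEN side is then a single library, assumed to vary like the ESC-type lines from which the spread is taken. With that limit, Col4a1 was at 4.08 ± 0.59 (limma adjusted p = 0.0383) and Sparc at 4.49 ± 0.67 (0.0398). Col4a2 did not pass, at 2.91 ± 0.63 (0.0672). Leaving out R1 ESC, or leaving out the line without dox, ended every call in limma, with 0 genes and 0 members called. At an unadjusted p under 0.05, 1599 genes were then higher and 1973 lower without R1 ESC, and 2221 higher and 1983 lower without the line without dox, with 6 members higher in both. Leaving out either XEN line gave 7 members higher and 1 lower, but the XEN side is then 1 library and the spread comes from the ESC-type lines alone, so this says little of stability.

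A slope over the ranked times of the dox course, from no dox to day 6, passed for 0 of 15057 genes in limma (0%). With time in hours in place of its rank, 4327 genes passed upward and 2037 downward, with 9 members upward and 1 downward, so the count depends on how time enters. At an unadjusted p under 0.05, 2461 genes sloped upward and 1316 downward, and 9 members sloped upward. The steepest member was Col4a1 with 0.72 ± 0.13 log2 units per step (SE; adjusted p = 0.12). Serpinh1 had 0.70 ± 0.21 (0.157) and Col18a1 -0.43 ± 0.21 (0.238). Values at day 6 were missing for Col4a1 and Col4a2, so their slopes rest on 5 libraries.

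Other genes of collagen folding and modification were also higher. In the limma comparison of the lines, 7 of 12 were higher and 0 lower, beside 4.87% of all genes higher and 3.87% lower, with a median of 2.41 against 0.22 over all genes. P4hb, the partner subunit of the prolyl 4-hydroxylases, had 2356 FPKM in wild-type XEN and 148 in R1 ESC, and 1715 FPKM in Sox17-XEN and 192 without dox. Leprel1, a prolyl 3-hydroxylase, had 126 FPKM in wild-type XEN and 0.316 in R1 ESC, and 48.2 in Sox17-XEN and 0.441 without dox. Glt25d1, a collagen galactosyltransferase, and Leprel4, a relative of the prolyl 3-hydroxylases, were at 216 and 123 FPKM in wild-type XEN, and at 24.3 and 15.4 FPKM in R1 ESC. Among 10 genes of procollagen export 2 were higher in the same test, beside the same 4.87% of all genes, Creb3l2 (3.25 ± 0.47, limma adjusted p = 0.0245) and Sec23a (limma adjusted p = 0.0301). Sec23a, a coat protein of export vesicles, had 79.8 FPKM in wild-type XEN and 15.4 in R1 ESC.

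The extracellular end of the pathway was split. Of 12 genes of cross-linking and propeptide cleavage, 2 were higher and 2 lower in limma, beside 4.87% and 3.87% of all genes, with a median of -1.63. At an unadjusted p under 0.05, 2 were higher and 5 lower. The lower calls were Pcolce2, an enhancer of propeptide cleavage (-2.78 ± 0.33, limma adjusted p = 0.0190), and the propeptide protease Adamts14 (-2.99 ± 0.31, 0.0172), which are named because the count is small. Pxdn, the peroxidase that makes the sulfilimine bonds of collagen IV, had 184 FPKM in wild-type XEN and 7.81 in R1 ESC, and 322 in Sox17-XEN and 16.7 without dox. Loxl2, a lysyl oxidase, had 347 FPKM in wild-type XEN and 25.8 in R1 ESC. Its relative Lox, which cross-links fibrillar collagen, had 0.208 FPKM in wild-type XEN and 42.7 in R1 ESC, but 70.6 in Sox17-XEN and 120 without dox. Lox did not pass in limma (-2.97 ± 2.15, adjusted p = 0.354). Of the other basement membrane collagens, Col4a5 had 0.0291 FPKM in wild-type XEN and 3.82 in R1 ESC, and Col15a1 had 0.212 FPKM in wild-type XEN and 1.60 in R1 ESC. In Sox17-XEN, Col4a5 had 3.22 FPKM, against 7.01 without dox, and Col15a1 had 1.47 FPKM, against 1.41 without dox. Neither was called in limma (adjusted p = 0.220 for Col4a5 and 0.367 for Col15a1). Col4a3, Col4a4 and Col4a6 were below 1 FPKM in all libraries. Of 5 laminins and linkers tested, 2 were higher and 0 lower, beside 4.87% and 3.87% of all genes. They were the network linkers Nid1 and Nid2, at 4.15 ± 0.92 (limma adjusted p = 0.0493) and 3.12 ± 0.37 (0.0189). The laminins Lama1, Lamb1 and Lamc1 had no usable estimate in either XEN line and were not tested. At day 6 against no dox they were 7.89, 4.85 and 4.37 log2 units higher.

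**Figure D5:**
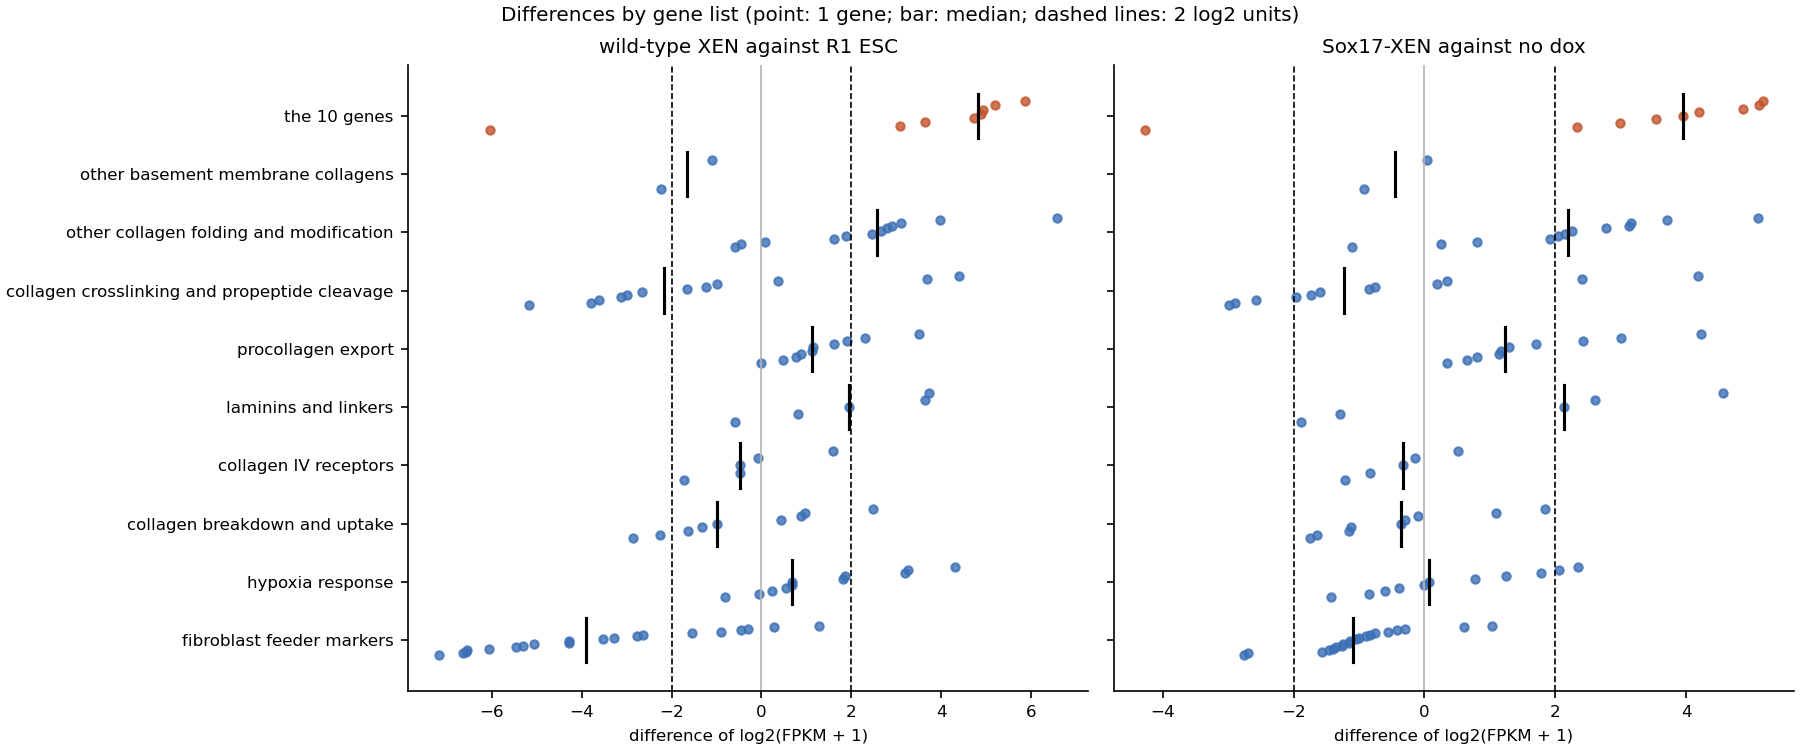
Difference of log2(FPKM + 1) (horizontal axis) for the genes of each list (rows) in wild-type XEN against R1 ESC and in Sox17-XEN against no dox, 1 point per gene, with a bar at the median and dashed lines at 2 log2 units. The medians of the other folding and modification genes are 2.57 and 2.20, and those of the crosslinking and propeptide genes are -2.17 and -1.22.

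Fibroblast feeder cells were part of the ESC cultures and also make collagens and their enzymes. The summed FPKM of 20 fibroblast markers was 2437 without dox, then 1152, 1527, 1946 and 2927 at 7, 21, 35 and 49 h, and 230 at day 6. It was 974 in Sox17-XEN, 36.1 in wild-type XEN and 1057 in R1 ESC. The median marker was at 68.0 FPKM without dox, 46.3 at 49 h and 7.16 at day 6. It was at 32.4 FPKM in Sox17-XEN, 0.242 in wild-type XEN and 20.7 in R1 ESC. Sum and median thus order 49 h and no dox differently, and also Sox17-XEN and R1 ESC. None of the 20 markers was called in the limma comparison of the lines, with 3 lower at an unadjusted p under 0.05. Of these markers, 6 reached 1 FPKM in wild-type XEN, with Col1a1 at 0.490 FPKM and Fap listed at 0, against 18 in R1 ESC. The sum was thus lower in wild-type XEN than in R1 ESC, and lower at day 6 and in Sox17-XEN than without dox. In these 3 comparisons most members were higher and Col18a1 was lower. At 7 h the sum was below that without dox. Of the 10 members 8 also lay below, all but Col4a1 and Plod1, but none by 2 log2 units. Their median difference was -0.30, against -0.096 over all genes, and Plod2 was at 0.03 after rescaling to the median gene. Without dox all 10 members lay above R1 ESC, none by 2 log2 units, and so did the sum. Sox17-XEN held more than wild-type XEN, with 16 of 20 markers higher, and Col18a1 and Lox were also above wild-type XEN there. The part of feeder RNA in these values was not tested.

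The genes whose pattern over the libraries was most like each member's were ranked by Pearson r of log2(FPKM + 1). Libraries share the line, the normalization and the split of day 6 and XEN from the other cultures, so high values are common. With Serpinh1, 877 of 10414 genes reached 0.95. Closest to Serpinh1 over 9 libraries were Txndc5 (r = 0.998), Kdelr3 and Sec22b. P4hb (r = 0.999) was closest to P4ha2, and Tmed10 was among the next. Erlec1, Fam46a and Sec61a1 were closest to P4ha1, and Flcn, 2310001A20Rik and Fut8 to Plod2. For Plod1 they were AU040320, Ciz1 and Fhdc1, and for Plod3 Mmgt1, AI597468 and Rcn1. Sparc over 8 libraries was most like Serp1, Rcn1 and Lamp1.

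The collagen IV chains had other neighbours in this ranking, which for them lacked day 6 and wild-type XEN. The other members were ranked over more libraries, so their neighbours and counts cannot be compared directly with those of the chains. Ttc7b and Ddx17 came first for both Col4a1 and Col4a2 over 7 libraries, followed by D8Ertd82e for Col4a1 and Eif2ak2 for Col4a2. The number of genes at 0.95 or more was 124 for Col4a1 and 93 for Col4a2. Col18a1 was most like Fgfr1 (r = 0.990), Smox and Sfrp2, with 112 genes at that level.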

How the data were processed

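Total RNA was extracted with Trizol and TruSeq RNA libraries were made, per the labels' protocols. Reads were processed with Cuffdiff, Cufflinks 2.1.2 and TopHat2 2.0.11 on the build mm9, per the submitters' processing notes. The deposited table gives the authors' FPKM per gene with confidence bounds and a status. A value with any status but OK counted as missing. Raw reads were not analysed here, and no count is given, so no counting interval was computed.

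The 10 members and all lists were chosen with earlier results of these data known. The 15082 rows that reached 1 FPKM in some library were kept. Values were used as log2(FPKM + 1). Single libraries were compared without a test at a threshold of 2 log2 units, and lines and the dox course were fitted with limma 3.58.1 (R 4.3.3; empirical Bayes, mean trend, two-sided, Benjamini-Hochberg over all genes), after the fit was tested on simulated data. Separate libraries are single cultures of different lines or times, so these p-values measure the spread between libraries only. Other steps used Python 3.11.15, numpy 2.4.6, pandas 2.3.3 and matplotlib 3.10.9.

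Named genes were all members, from each list up to 4 genes of largest size in each direction past the threshold in wild-type XEN against R1 ESC, all other basement membrane collagens, P4hb and Pxdn, and the 3 genes most like each member (protein-coding, at least 5 FPKM in some library, at least 7 usable libraries), of which 1 is not reported here. Gene types came from GENCODE M21 (32917 rows found). Mia3 was not found, and Ctage5 and Dab2 had more than 1 row and were dropped. Promoters were matched by symbol to the RefSeq table. Alternatives were other pseudocounts, filters, thresholds, rescaling to the median gene, the authors' intervals, R1 ESC as baseline and leaving out each library.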

Additional observations from a re-analysis of the deposited data

How the results depend on the processing

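No member changed direction under any alternative tried where it was called. In wild-type XEN against R1 ESC, Sox17-XEN against no dox and day 6 against no dox, asking for the authors' intervals to be apart left 1 member higher and 0 lower each. The same condition left 0 at 21, 35 and 49 h and in Sox17-XEN against wild-type XEN. A pseudocount of 5 left 0 members higher at 21 h and in Sox17-XEN against wild-type XEN. The share of all genes called is not given for this pseudocount, for the authors' intervals or for the R1 ESC baseline. A threshold of 1 log2 unit gave 2 members higher at each of 21, 35 and 49 h, beside 3.12%, 2.60% and 3.26% of all genes. It gave 2 higher in Sox17-XEN against wild-type XEN (9.09% of all genes) and in no dox against R1 ESC (3.54%). Sox17-XEN against day 6 then had 4 higher and 1 lower, beside 10.6% and 9.82% of all genes. With R1 ESC as the baseline, 2 members were higher at 21, 35 and 49 h. Without Col4a1, Col4a2 and Sparc, an alternative chosen after seeing the data, 0 were. Between XEN-type and ESC-type lines (limma), a pseudocount of 0.1 gave 1246 genes and 0 members lower. A pseudocount of 5 gave 372 genes higher and 169 lower, and no filter gave 145 higher and 140 lower with 3 members higher and 0 lower. Rescaling gave 459 genes higher, and a treat test against 1 log2 unit gave 156 higher and 173 lower with 4 members higher and 0 lower. Leaving out a library gave 0 to 786 genes higher, 0 to 687 lower, 0 to 7 members higher and 0 to 1 lower, and the low ends came without R1 ESC or without the line without dox. For the trend over the dox course, time in hours gave 4327 genes upward and 2037 downward with 9 members upward and 1 downward. Adding Sox17-XEN as a step gave 1278 genes upward and 733 downward with 8 members upward, and leaving out any library gave 0. The cause of these changes was not tested.

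No analysis paired by replicate was possible because each group has 1 library. A fit with genotype (Sox17 line or wild type) as a block, chosen after seeing the data and run on the genes with values in all 4 lines, gave 657 genes higher and 557 lower, with 6 members higher and 1 lower. The main limits are the single library per culture, the failed estimates of the most abundant genes and the unknown depth.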

Other observations

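Receptors, breakdown enzymes and regulators around the collagen pathway gave fewer calls. None of 5 collagen IV receptors was called in the limma comparison of XEN-type with ESC-type lines, with a median of -0.31 log2 units against 0.22 over all genes, and 1 was higher at an unadjusted p under 0.05. None of 9 genes of collagen breakdown and uptake was called there, with a median of -0.64, and 1 was higher and 2 were lower at an unadjusted p under 0.05. In wild-type XEN against R1 ESC, Timp2, an inhibitor of matrix metalloproteinases, had 217 FPKM in wild-type XEN and 37.7 in R1 ESC, whereas the collagen uptake receptor Mrc2 had 0.176 FPKM in wild-type XEN and 7.51 in R1 ESC.

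Of 11 hypoxia-response genes, 2 were higher and 0 lower in the same test, beside 4.87% of all genes higher and 3.87% lower, and 4 were higher and 1 lower at an unadjusted p under 0.05. The calls were Egln1 and Egln3, which encode the prolyl hydroxylases that act on hypoxia-inducible factors. Egln1 had 78.0 FPKM in wild-type XEN and 7.58 in R1 ESC, and 51.7 in Sox17-XEN and 9.42 without dox. Egln3 had 139 FPKM in wild-type XEN and 13.6 in R1 ESC, and 56.4 in Sox17-XEN and 12.9 without dox. Ndrg1 had 187 FPKM in wild-type XEN and 8.51 in R1 ESC, and was not called in limma (3.04 ± 1.08, SE, adjusted p = 0.118). The median of the list was 0.63 log2 units. Of 2 ascorbate transporters, which carry the cofactor of collagen hydroxylases, 0 were called, and 0 had an unadjusted p under 0.05, with a median of 0.04.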
